A study of Mus musculus with 24 samples.

Results

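The S100 calcium-binding proteins are described here through 9 mouse genes, S100a1, S100a4, S100a6, S100a8, S100a9, S100a10, S100a11, S100a13 and S100a16, whose transcripts were counted in liver. They were taken by symbol from a table of 56205 genes, and all 9 were present and passed the filter on low values, which left 17913 genes that had at least 1 count in at least 12 libraries. The libraries compare livers of mice on a high-fat diet, coded FFD in the labels, with livers of mice on a control diet. Whole livers of male and female C57BL/6J mice were collected after 20 weeks on the high-fat diet or a control diet, with 6 mice per diet and sex, which gave 12 high-fat and 12 control libraries of poly(A) RNA. C57BL/6J is an inbred wild-type strain, and no allele, transgene or drug separated the groups. The labels give neither the composition of the diets nor the sex of the mouse behind a library, and the libraries were therefore also split by their count of Xist, the noncoding RNA that coats the inactive X chromosome. Replicates 1 to 6 of each diet held 2664 to 6285 Xist counts and replicates 7 to 12 held 0 to 3, so a limit of 1000 counts made 2 sets of 6 libraries per diet.

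S100 proteins are small proteins of vertebrates that bind calcium through paired EF-hand motifs, mostly as dimers, and then attach to target proteins. Some act inside the cell on the cytoskeleton, on annexins and at membranes, whereas S100a8 and S100a9, which pair as calprotectin, are stored in neutrophils and monocytes, are released in inflammation and are read by receptors such as Toll-like receptor 4 and RAGE. In liver, S100a4, S100a6 and S100a11 are best known from macrophages, fibroblast-like cells and bile duct cells, and S100a10 from its complex with annexin A2. S100a10 is the exception in the family, as it has lost the ability to bind calcium.

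All 9 genes lie on chromosome 3 of the mouse genome, in the GRCm38 build with GENCODE M21 gene models. S100a1, S100a13, S100a16, S100a4, S100a6, S100a8 and S100a9 follow each other between positions 90511034 and 90695721, and S100a11 (93520488 to 93526287, plus strand) and S100a10 (93555080 to 93564643, plus strand) stand further along. S100a1 and S100a9 are read from the minus strand and the rest from the plus strand. S100a1 and S100a13 run away from each other, with 104 bases between their RefSeq starts. The gene models carry 511 to 1617 exonic bases. S100a4 shares 302 exonic bases with Gm42674 on the same strand, and Gm42674 held 0 counts in every library, so how reads of the shared stretch were assigned is not visible in the table.

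The upstream sequence is shown for the 5 genes that were called higher on the high-fat diet. RefSeq promoters of the GRCm38.p6 build were matched for 8 of the 9 genes, S100a10 being the gene without an entry. The bases run 5′ to 3′ on the strand of the gene and leave out any base inside an annotated exon. Capitals mark 4 motifs sought on both strands in the 250 bases before the start: the TATA box TATAAA, the AP-1 site TGANTCA, the ETS site GAGGAAGT and the GC box GGGCGG.
S100a11 (chr3:93520246-93520487, plus strand): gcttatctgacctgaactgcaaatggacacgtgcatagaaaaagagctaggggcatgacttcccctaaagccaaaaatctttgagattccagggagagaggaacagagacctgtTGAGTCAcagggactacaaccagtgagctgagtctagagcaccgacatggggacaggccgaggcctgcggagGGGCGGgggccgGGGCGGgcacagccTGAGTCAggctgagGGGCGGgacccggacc
S100a4 (chr3:90603520-90603769, plus strand): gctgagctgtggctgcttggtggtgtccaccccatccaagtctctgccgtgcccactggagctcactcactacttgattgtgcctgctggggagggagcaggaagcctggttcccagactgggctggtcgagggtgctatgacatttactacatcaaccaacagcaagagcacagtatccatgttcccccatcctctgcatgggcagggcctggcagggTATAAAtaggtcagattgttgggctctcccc
S100a6 (chr3:90612644-90612881, plus strand): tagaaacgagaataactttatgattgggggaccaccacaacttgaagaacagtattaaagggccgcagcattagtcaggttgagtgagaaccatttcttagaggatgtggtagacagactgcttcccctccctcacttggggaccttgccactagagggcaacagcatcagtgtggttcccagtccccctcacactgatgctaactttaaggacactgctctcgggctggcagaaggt
S100a8 (chr3:90668821-90668977, plus strand): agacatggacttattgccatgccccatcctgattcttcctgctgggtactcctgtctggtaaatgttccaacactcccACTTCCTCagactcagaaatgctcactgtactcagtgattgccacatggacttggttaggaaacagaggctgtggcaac
S100a9 (chr3:90695722-90695971, minus strand): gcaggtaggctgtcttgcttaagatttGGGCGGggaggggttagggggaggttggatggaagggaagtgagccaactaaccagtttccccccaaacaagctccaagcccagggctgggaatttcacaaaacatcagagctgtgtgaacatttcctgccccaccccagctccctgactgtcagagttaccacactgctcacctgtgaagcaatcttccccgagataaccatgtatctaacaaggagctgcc

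The S100a11 promoter held 2 AP-1 matches and 3 GC boxes. The AP-1 matches ended 130 and 32 bases before the start. S100a4 had a TATA box whose first base lay 31 bases before the start, and S100a8 had one 30 bases before the start, inside an annotated exon and therefore not printed. S100a8 also held the ETS letters in reverse complement (ACTTCCTC), and S100a9 held 1 GC box. None of the 4 motifs was found in these 250 bases of S100a6. Among members that were not called, S100a16 held an AP-1 match and a GC box in its second promoter, while S100a1 and S100a13 held no match. The AP-1 and GC box letters were thus not particular to the genes called higher. Over 32851 mouse promoters, 12.4% held the TATA box, 6.75% the AP-1 letters, 2.44% the ETS letters and 32.7% the GC box in a window of the same length. These matches describe letters only.

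The libraries held 14468418 to 22112552 counts. Alb, the albumin transcript that defines hepatocytes, was present in every library at 24224 to 101063 CPM, and the adipocyte transcripts Adipoq, Lep, Plin1 and Retn reached at most 7 counts in any library. CPM are counts scaled to 1e+06 per library, with totals adjusted by edgeR's trimmed-mean (TMM) factors. Some libraries stood apart from their group. High-fat replicate 3 held 179 CPM of 10 summed neutrophil transcripts against at most 14.6 CPM in the other high-fat libraries, and 5218 CPM of 5 red-cell transcripts against at most 704 CPM. Control replicate 10 had the lowest total and a TMM factor of 0.679, and its transcripts of at most 1500 exonic bases deviated from the median of its diet and set by a median of 0.70 on the log2 scale while those over 4000 bases deviated by -0.21. High-fat replicate 9 held 237 CPM of 8 summed bile duct transcripts, against at most 77.4 CPM in the other high-fat libraries. Results on S100 genes that rest on these libraries are given with and without them.

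Of the 9 S100 transcripts, 5 were higher on the high-fat diet: S100a11, S100a4, S100a6, S100a8 and S100a9. The call was made by edgeR's quasi-likelihood test over all 17913 genes, with a Benjamini-Hochberg adjusted p no greater than 0.01 and a log2 fold change beyond 0.5 in either direction. No member was called lower. In the same fit 13.2% of all genes were called higher and 4.99% lower. DESeq2 called the same 5 members higher and 0 lower. limma-voom called 4 higher and 0 lower, namely S100a4, S100a6, S100a11 and S100a10, but not S100a8 or S100a9. In the edgeR fit 0 members were lower at an unadjusted p under 0.05. The median log2 fold change of the 9 was 2.02, against -0.03 over all genes tested, and 1.0 without high-fat replicate 3. In whole-liver RNA, more cells of a type and more RNA per cell cannot be told apart, and p-values measure the spread between these libraries.

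**Figure D1:**
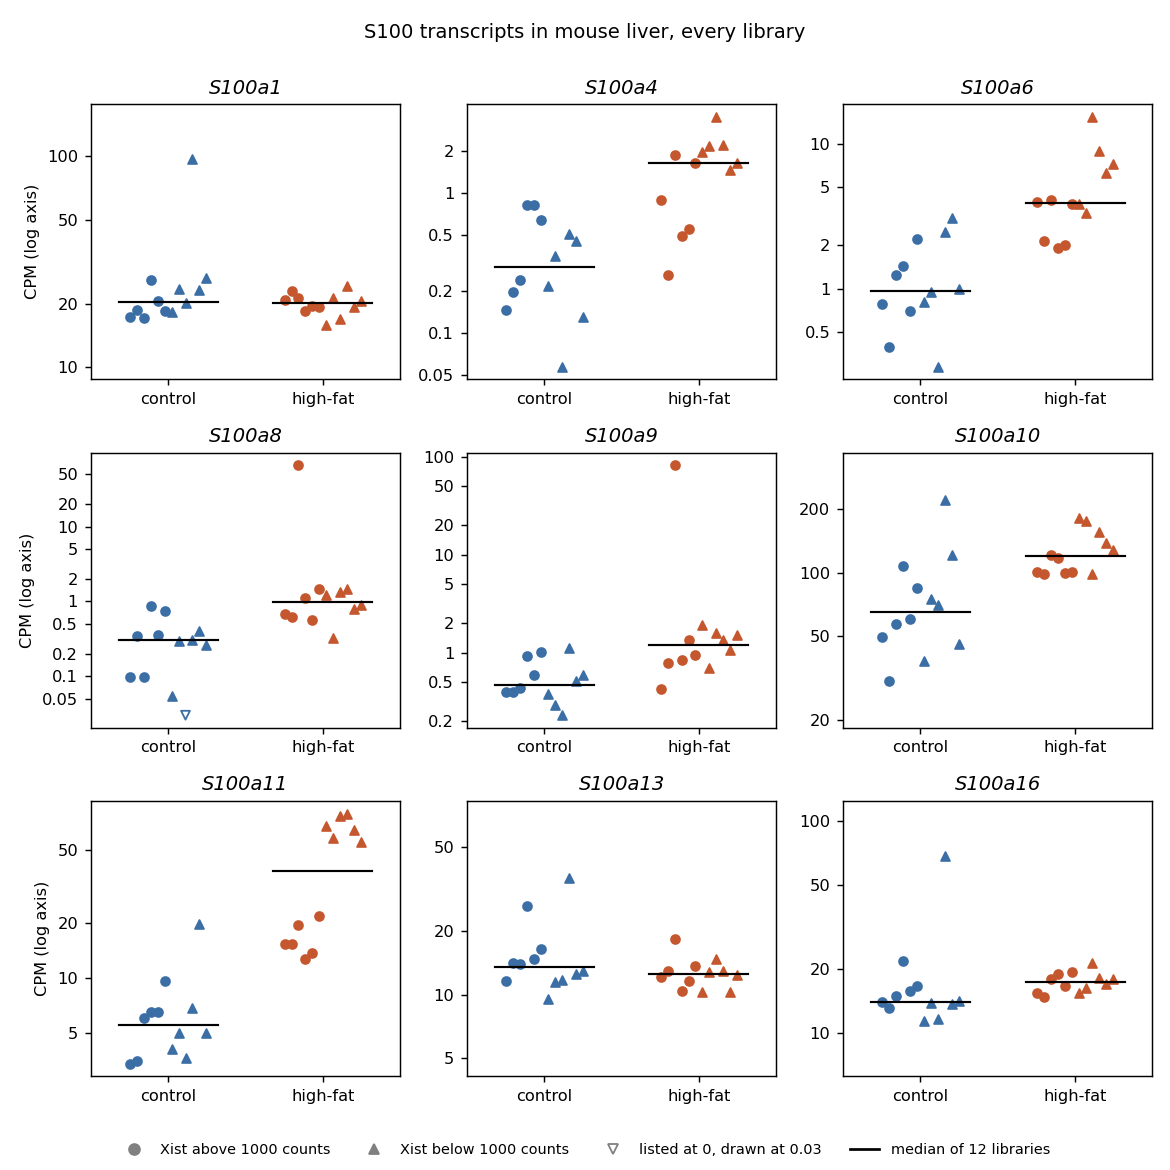
Level of each S100 transcript in every library, in CPM on a log axis, with the control libraries on the left and the high-fat libraries on the right of each panel. Circles are libraries with more than 1000 Xist counts, triangles those with fewer, the bar is the median of 12 libraries, and the open triangle is the control library with 0 S100a8 counts. S100a11 splits into 2 separate levels among the high-fat libraries, and S100a8 and S100a9 each have 1 high-fat library far above the rest.

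Levels of different genes were compared per kilobase of exon. On the control diet S100a10 was the most abundant of the 9, with a median of 53.8 CPM per kilobase (25.4 to 183), followed by S100a1 at 29.3, S100a13 at 18.8, S100a11 at 10.8 and S100a16 at 8.67 CPM per kilobase. S100a9, S100a6, S100a4 and S100a8 had medians of 0.432 to 0.903 CPM per kilobase. On the high-fat diet S100a10 was again first, at 98.4 CPM per kilobase (81.2 to 149), and S100a11 stood second at 75.6 CPM per kilobase (24.8 to 155). These 2 were not in a fixed order, as S100a10 exceeded S100a11 in 8 of 12 high-fat libraries. S100a1, S100a13 and S100a16 kept their order in all 12 high-fat libraries, whereas S100a6 exceeded S100a4 in 8 and S100a4 exceeded S100a9 in 6. The share of S100a11 in the summed level of the 9 genes had a median of 8.13% on the control diet and 28.5% on the high-fat diet, and the share of S100a1 had a median of 24.9% on the control diet and 10.1% on the high-fat diet.

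**Figure D2:**
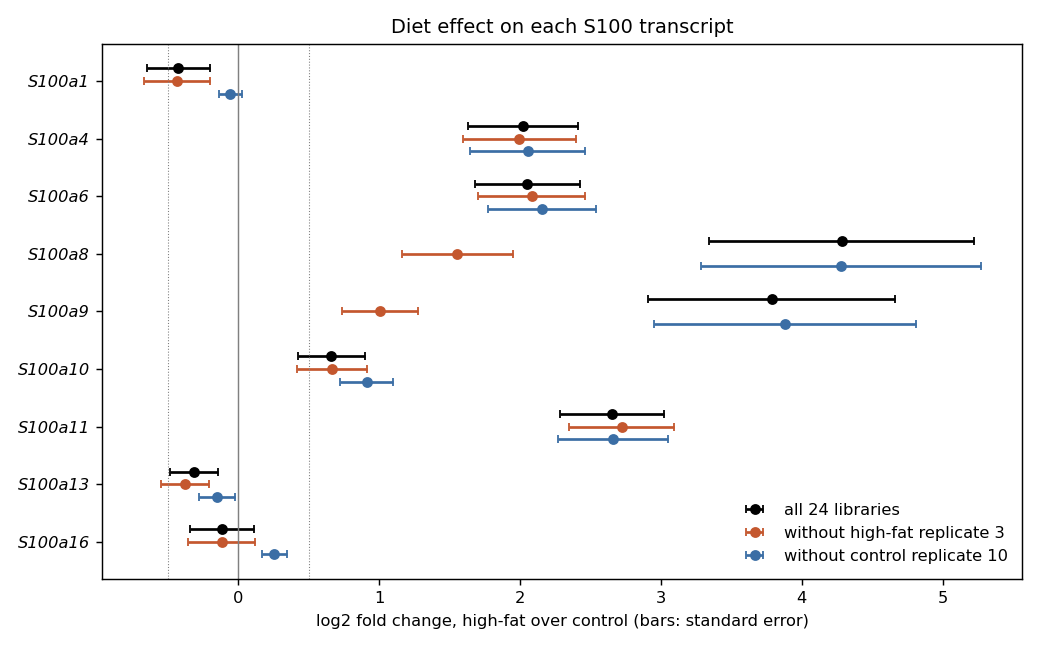
Log2 fold change of each S100 transcript between the high-fat and control libraries, with standard errors, from all 24 libraries (black), without high-fat replicate 3 (orange) and without control replicate 10 (blue). Dotted lines mark a log2 fold change of 0.5 in either direction. S100a8 and S100a9 move from 4.28 and 3.79 to 1.55 and 1.0 without high-fat replicate 3, and S100a10 moves from 0.66 to 0.91 without control replicate 10.

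S100a11, a calcium-dependent partner of annexins at membranes, had the smallest adjusted p of the family. In the high-fat libraries it ranged from 12.7 to 79.3 CPM with a median of 38.6, and in the controls from 3.39 to 19.7 CPM with a median of 5.51. The groups overlapped only through control replicate 11, at 19.7 CPM, since the other 11 controls reached at most 9.60 CPM and lay below every high-fat library. The log2 fold change was 2.65 ± 0.37 (SE, n = 12 per diet), a 6.29-fold difference, with an adjusted p of 6.82e-06 in edgeR. It remained called in each of the alternatives, including each library left out in turn.

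The rise of S100a11 differed between the sets of libraries. Where Xist was above 1000 counts, the high-fat libraries held 12.7 to 21.9 CPM with a mean of 16.4 ± 3.53 (SD, n = 6) and the controls 3.39 to 9.60 CPM with a mean of 5.92 ± 2.30 (SD, n = 6). Where Xist was below 1000 counts, the high-fat libraries held 55.4 to 79.3 CPM with a mean of 67.2 ± 9.68 (SD, n = 6) and the controls 3.63 to 19.7 CPM with a mean of 7.37 ± 6.15 (SD, n = 6). Every high-fat library of the second set was thus above every one of the first, while the controls of both sets overlapped. Fitted within each set, S100a11 rose by 1.48 ± 0.22 (SE, edgeR adjusted p = 0.000823) with Xist above and by 3.20 ± 0.36 (SE, edgeR adjusted p = 1.48e-05) with Xist below, both on the log2 scale. In the first set S100a11 was the 1 member called higher, where 2.9% of all genes were called higher and 0.882% lower. In the second set 5 members were called higher, where 14.4% of all genes were called higher and 7.99% lower. The difference itself, the first minus the second, was -1.71 ± 0.44 (SE) on the log2 scale with an adjusted p of 0.0121 in edgeR. Over all genes 10.2% differed between sets with an adjusted p no greater than 0.05, and 6.18% did so with the smaller rise or larger fall where Xist was above 1000 counts.

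**Figure D3:**
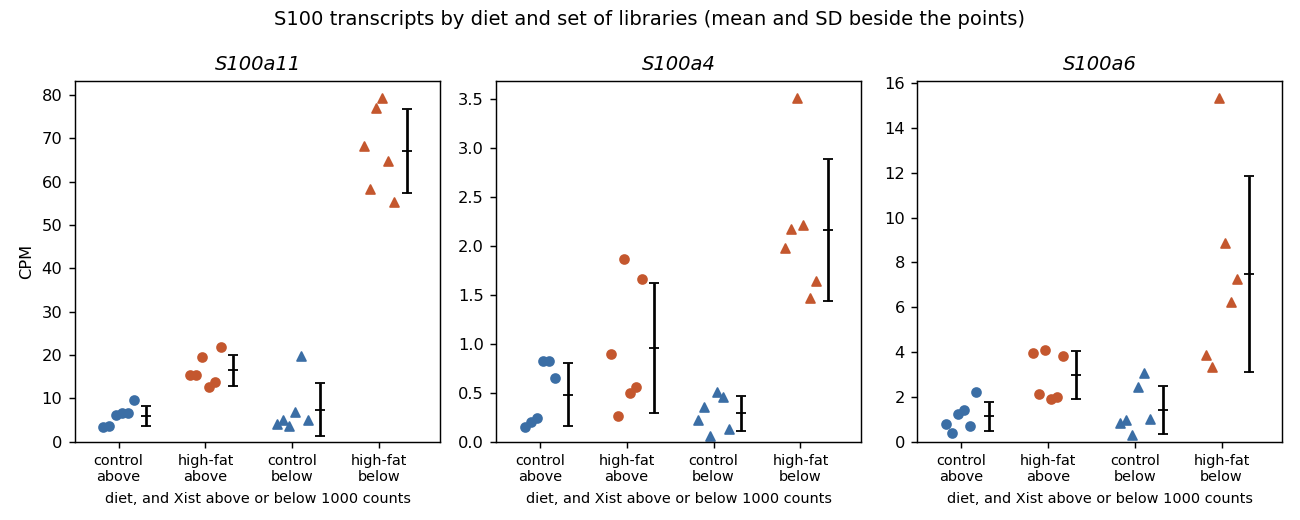
S100a11, S100a4 and S100a6 in CPM by diet and by set of libraries (Xist above or below 1000 counts), with each of the 6 libraries as a point and the mean with its SD beside them. The high-fat libraries with Xist below 1000 counts hold 55.4 to 79.3 CPM of S100a11, and those with Xist above hold 12.7 to 21.9 CPM.

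S100a4, also called fibroblast-specific protein and known from macrophages and migrating mesenchymal cells, was scarce in both groups. It ranged from 0.259 to 3.51 CPM with a median of 1.65 in the high-fat libraries and from 0.0576 to 0.822 CPM with a median of 0.297 in the controls, which corresponded to 5 to 83 and 1 to 15 counts. Of the 12 high-fat libraries 9 lay above every control, and the other 3 all had Xist above 1000 counts. S100a4 had a log2 fold change of 2.02 ± 0.39 (SE, n = 12 per diet) with an adjusted p of 0.000244 in edgeR. Within the sets it was 2.95 ± 0.40 (SE, edgeR adjusted p = 6.22e-05) with Xist below 1000 counts and 1.01 ± 0.52 (SE, edgeR adjusted p = 0.218) with Xist above. The difference between the sets was -1.93 ± 0.70 (SE) with an edgeR adjusted p of 0.0776, and it passed 0.05 in DESeq2 (adjusted p = 0.0331) and without high-fat replicate 3 and control replicate 10 (edgeR adjusted p = 0.0236).

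S100a6, or calcyclin, binds the ubiquitin-ligase adaptor encoded by Cacybp and is found in fibroblasts and in ductal epithelium. Its level ranged from 1.89 to 15.3 CPM with a median of 3.91 in the high-fat libraries and from 0.288 to 3.06 CPM with a median of 0.965 in the controls. Again 9 of 12 high-fat libraries were above every control. The highest of all was high-fat replicate 9 at 15.3 CPM, with 8.87 CPM in the next, and the same library held the most bile duct transcripts. The log2 fold change was 2.05 ± 0.37 (SE, n = 12 per diet) with an adjusted p of 0.00012 in edgeR, and 1.79 without high-fat replicate 9, still called. Within the sets it was 2.45 ± 0.49 (SE, edgeR adjusted p = 0.00126) with Xist below 1000 counts and 1.40 ± 0.35 (SE, edgeR adjusted p = 0.0157) with Xist above. The difference between the sets, -1.04 ± 0.63 (SE), did not pass (edgeR adjusted p = 0.328).

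Transcripts of 3 cell types in which these genes are known moved in the same comparison, where 13.2% of all genes were called higher and 4.99% lower. Of 8 transcripts of lipid-associated macrophages, among them Trem2 and Gpnmb, 7 were called higher and Fabp5 lower, and their sum ranged from 390 to 1346 CPM in the high-fat libraries and from 123 to 388 CPM in the controls. On the high-fat diet that sum was dominated by Lyz2 (mean 302 CPM, 185 to 589) and Spp1 (mean 268 CPM, 26.3 to 729). In the controls the highest means were those of Fabp5 (102 CPM, 23.9 to 232) and Lyz2 (83.3 CPM, 41.0 to 193). The control sum thus leaned on the transcript that was called lower. Of 9 transcripts of activated stellate cells, the collagen-making cells of liver scars, 7 were called higher, with sums of 362 to 972 CPM against 144 to 426 CPM, and the 2 not called were Acta2 and Tagln (Tagln was called without control replicate 10). Of 8 bile duct transcripts 5 were called higher, with sums of 23.4 to 237 CPM against 20.5 to 40.8 CPM, and 4 without high-fat replicate 9, where 12.2% of all genes were called higher. The median log2 fold changes of these lists were 2.24, 2.11 and 2.19, against -0.03 over all genes, and 2.12, 1.99 and 1.55 without high-fat replicate 9. Among the high-fat libraries the macrophage sum was 697 to 1346 CPM with Xist below 1000 counts and 390 to 579 CPM with Xist above. The stellate sum split in the same direction, at 644 to 972 CPM against 362 to 566 CPM. The sum of 7 hepatocyte transcripts split in the opposite one, at 36330 to 47481 CPM against 67968 to 91375 CPM. In the controls the hepatocyte sum was also mostly lower with Xist below, at 81881 to 97895 CPM against 94408 to 130011 CPM. The control macrophage sums (123 to 343 CPM against 206 to 388 CPM) and stellate sums (144 to 426 CPM against 161 to 269 CPM) overlapped between the sets, as S100a11 did. The part of these cells in the S100 results was not tested.

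Within the 4 groups of diet and set, S100a6 followed the summed stellate transcripts over 24 libraries with a Pearson r of 0.56 (permutation p = 0.00481) and a Spearman rho of 0.57 (permutation p = 0.00568), both 0.0151 after adjustment. This and 7 further relations were computed on log2(CPM + 1) after the mean of each group was taken off, with 100000 permutations within groups and adjustment over 16 values. With the 2 libraries farthest from the median of S100a6 left out, high-fat replicate 9 and control replicate 11, r was 0.45 (permutation p = 0.0451). For S100a6 and the bile duct sum r was 0.57 (permutation p = 0.021, adjusted 0.0373), while rho was 0.38 (permutation p = 0.105, adjusted 0.12). That relation rested on the same libraries, with r = 0.26 (permutation p = 0.313) without them. For S100a4 neither relation passed over all libraries. With the macrophage sum r was 0.26 (permutation p = 0.16, adjusted 0.16) and rho was 0.36 (permutation p = 0.0683, adjusted 0.0881), and r was 0.33 (permutation p = 0.0816) without high-fat replicates 3 and 9. With the stellate sum r was 0.26 (permutation p = 0.155, adjusted 0.16) and rho was 0.41 (permutation p = 0.0581, adjusted 0.0845), and r was 0.41 (permutation p = 0.0331, not adjusted) without those libraries. Without high-fat replicate 3 alone r was 0.40 (permutation p = 0.0367) with the macrophage sum and 0.41 (permutation p = 0.0238) with the stellate sum, neither adjusted. For S100a11 and the macrophage sum, r was 0.48 (permutation p = 0.0716, adjusted 0.0881) and rho was 0.49 (permutation p = 0.0274, adjusted 0.0438), and r was 0.45 (permutation p = 0.0554) without control replicates 6 and 11.

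S100a8 and S100a9, the calprotectin subunits of neutrophils and monocytes, had the greatest fold differences of the family over all libraries, an order that turned without high-fat replicate 3. S100a8 was at 66.2 CPM in high-fat replicate 3, from 1242 counts, and at 0.325 to 1.46 CPM in the other 11 high-fat libraries. In the controls it ranged from 0 to 0.875 CPM with a median of 0.30, and the control with no count allows up to 3 counts, or 0.173 CPM. S100a9 was at 81.9 CPM in high-fat replicate 3, from 1537 counts, at 0.422 to 1.93 CPM in the other 11, and at 0.23 to 1.12 CPM in the controls. Apart from that library, the high-fat medians were 0.885 CPM for S100a8 and 1.07 CPM for S100a9 and the groups partly overlapped, with 7 of all 12 high-fat libraries above every control for S100a8 and 6 of 12 for S100a9.

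Over all libraries the log2 fold change of S100a8 was 4.28 ± 0.94 (SE, n = 12 per diet, edgeR adjusted p = 0.000812) and that of S100a9 was 3.79 ± 0.88 (SE, n = 12 per diet, edgeR adjusted p = 0.00133). Without high-fat replicate 3 they were 1.55 ± 0.40 (SE, edgeR adjusted p = 0.00299) and 1.0 ± 0.27 (SE, edgeR adjusted p = 0.00482), so the fold fell from 19.5 to 2.94 and from 13.8 to 2.01 and both calls remained. In that fit both folds were below those of S100a11 (6.60), S100a6 (4.23) and S100a4 (3.99). DESeq2, which replaces outlying counts in groups of this size, gave 1.55 (adjusted p = 0.000191) and 1.0 (adjusted p = 0.00104). limma-voom did not call S100a8 (adjusted p = 0.0138) or S100a9 (adjusted p = 0.0628). Neither was called with a block for the replicate number (2.08 and 1.42), though it is not known whether the numbers pair libraries. In the set with Xist below 1000 counts, which does not hold that library, the log2 fold changes were 2.23 ± 0.55 (SE, edgeR adjusted p = 0.0055) and 1.46 ± 0.38 (SE, edgeR adjusted p = 0.00673). In the other set, which does, they were 4.81 ± 1.31 (SE) and 4.52 ± 1.29 (SE) with edgeR adjusted p of 0.0241 and 0.0305.

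**Figure D4:**
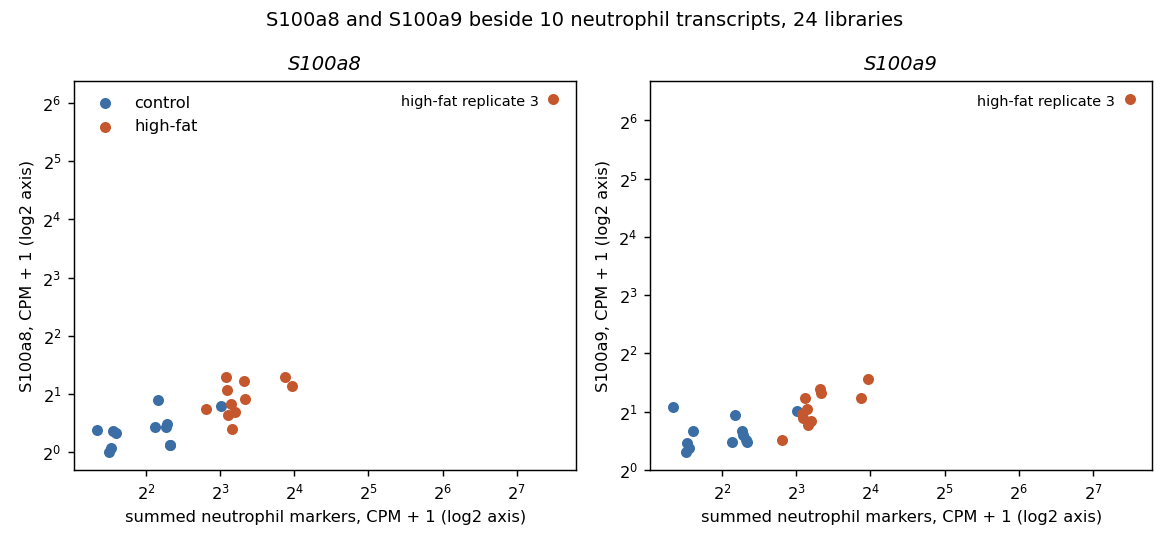
S100a8 (left) and S100a9 (right) against the sum of 10 neutrophil transcripts, each as CPM + 1 on log2 axes, with 1 point per library. High-fat replicate 3 lies at 179 CPM of neutrophil transcripts and at 66.2 CPM of S100a8 and 81.9 CPM of S100a9. The other 11 high-fat libraries hold at most 14.6 CPM of neutrophil transcripts.

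Neutrophil transcripts were highest in that library too. Of 12 listed, Ly6g and Stfa2l1 were too low to test, 8 were called higher and 2 were not, with a median log2 fold change of 3.60, and 1.39 without high-fat replicate 3. Ngp, a granule protein of developing neutrophils, was at 36.9 CPM in high-fat replicate 3 and at most 0.435 CPM in any other library, and Mpo, myeloperoxidase, was at 37.4 CPM against at most 0.461 CPM. Without that library 2 of the 10 tested were called, Csf3r and Mmp8, while 13.4% of all genes were called higher. The control sums were 1.53 to 7.06 CPM and those of the other high-fat libraries 6.02 to 14.6 CPM. Csf3r alone had medians of 6.26 CPM on the high-fat diet and 2.26 CPM in the controls. The medians of the whole sum were 8.05 and 3.43 CPM, so outside high-fat replicate 3 the sum mostly followed this transcript. Of 8 transcripts of infiltrating monocytes 7 were called higher, among them Ccr2 and Chil3, while without high-fat replicate 3 the count was 6, with Fn1 lower and 5.55% of all genes lower. The monocyte sum, 697 to 2116 CPM on the high-fat diet and 1008 to 2474 CPM in the controls, was dominated by Fn1, which hepatocytes also make. The part of these cells in the rise of S100a8 and S100a9 was not tested.

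S100a8 and S100a9 moved together. After the group means were taken off, r over 24 libraries was 0.98 (permutation p = 0.00033, adjusted 0.00176), and rho was 0.87 (permutation p = 0.00021, adjusted 0.00168). Without high-fat replicate 3 r was 0.61 (permutation p = 0.00418), and without high-fat replicates 3 and 5 it was 0.74 (permutation p = 0.00025). For S100a8 and the neutrophil sum r was 0.95 (permutation p = 0.00504, adjusted 0.0151), and rho was 0.70 (permutation p = 0.0171, adjusted 0.0342). That relation rested on high-fat replicate 3, with r = 0.43 (permutation p = 0.0616) without it and 0.45 (permutation p = 0.0537) without high-fat replicates 3 and 5. The mean log2 ratio of S100a9 to S100a8, computed from CPM + 0.5, was 0.19 ± 0.39 (SD, n = 12) in the high-fat libraries, against 0.41 ± 0.30 (SD, n = 12) in the controls. The difference of -0.22 did not pass (two-sided permutation p = 0.133), and at these counts it moved to -0.60 (two-sided permutation p = 0.0287) with 0.1 added in place of 0.5.

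S100a10 forms a tetramer with annexin A2, encoded by Anxa2, that carries plasminogen at the cell surface. It was at 98.5 to 181 CPM with a median of 119 in the high-fat libraries and at 30.8 to 221 CPM with a median of 65.2 in the controls. The highest control was control replicate 10 at 221 CPM, above every high-fat library, whereas the other controls reached at most 121 CPM and 9 of 12 controls lay below every high-fat library. The log2 fold change was 0.66 ± 0.24 (SE, n = 12 per diet) with an adjusted p of 0.0298 in edgeR, which missed the threshold. Without control replicate 10 it was 0.91 ± 0.19 (SE, edgeR adjusted p = 0.000503) and passed, which made 6 members called higher. limma-voom (0.83, adjusted p = 0.00611) also called it, as did edgeR with each library's trend with transcript length removed (0.80, adjusted p = 0.00195).

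Anxa2 rose further than S100a10. It was at 58.0 to 205 CPM in the high-fat libraries and at 8.05 to 41.6 CPM in the controls, with no overlap, and its log2 fold change was 2.97 ± 0.30 (SE, n = 12 per diet, edgeR adjusted p = 1.89e-07). Every high-fat library lay above every control in 1.48% of all genes. The log2 ratio of S100a10 to Anxa2 averaged 0.22 ± 0.51 (SD, n = 12) in the high-fat libraries, against 2.32 ± 0.54 (SD, n = 12) in the controls. All 12 high-fat libraries were below all 12 controls, the difference was -2.10, and the two-sided permutation p of 1e-05 was the smallest that 100000 permutations can give. Within the sets the difference was -1.56 with Xist above 1000 counts and -2.65 with Xist below (exact permutation p = 0.00216 in each, the smallest possible for 6 against 6). The ratio is of CPM and not per length, so only its difference between diets can be read. Within groups S100a10 followed Anxa2 over 24 libraries, with r = 0.72 (permutation p = 0.0083, adjusted 0.019). Spearman's rho was 0.88 (permutation p = 2e-05, adjusted 0.00032), and r was 0.73 (permutation p = 0.0036) without control replicates 7 and 10.

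**Figure D5:**
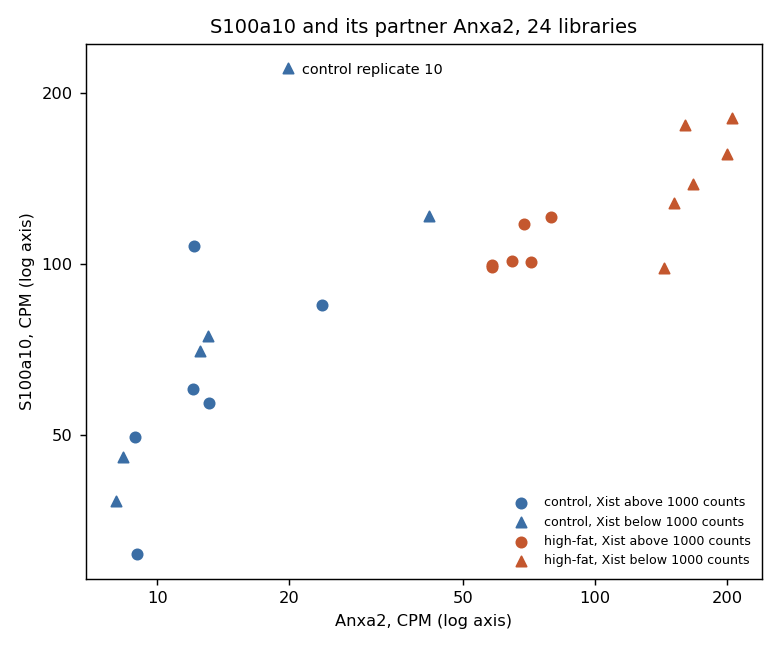
S100a10 against Anxa2, both in CPM on log axes, with 1 point per library coloured by diet and shaped by set. The high-fat libraries lie at 58.0 to 205 CPM of Anxa2, to the right of all controls, while the ranges of S100a10 overlap, and control replicate 10 sits at 221 CPM of S100a10.

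S100a1, S100a13 and S100a16 were not called in either direction. S100a1, the cardiac and neuronal S100 protein that binds the ryanodine receptor, was at 15.9 to 24.4 CPM with a median of 20.1 on the high-fat diet and at 17.2 to 96.7 CPM with a median of 20.3 on the control diet. The 96.7 CPM belonged to control replicate 10, and the other controls reached at most 26.4 CPM. Its log2 fold change was -0.43 ± 0.22 (SE, n = 12 per diet, edgeR adjusted p = 0.131), and -0.06 ± 0.08 (SE, edgeR adjusted p = 0.618) without that library. S100a13, which takes part in the export of Fgf1 and interleukin 1 alpha from cells, was at 10.3 to 18.3 CPM on the high-fat diet and at 9.51 to 35.5 CPM on the control diet, again with control replicate 10 highest. Its log2 fold change was -0.32 ± 0.17 (SE, n = 12 per diet, edgeR adjusted p = 0.142), and -0.15 ± 0.13 (SE, edgeR adjusted p = 0.365) without that library.

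S100a16, a widely expressed member, was at 14.7 to 21.3 CPM with a median of 17.4 in the high-fat libraries and at 11.4 to 68.2 CPM with a median of 14.02 in the controls. All 12 high-fat libraries were above the control median, yet control replicate 10, at 68.2 CPM, was above all of them. Its log2 fold change was -0.12 ± 0.23 (SE, n = 12 per diet, edgeR adjusted p = 0.715) over all libraries and 0.26 ± 0.09 (SE, edgeR adjusted p = 0.0228) without control replicate 10, so the direction was set by 1 library and neither value passed. DESeq2 gave 0.27 (adjusted p = 0.0124), which also missed the threshold.

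Among the remaining S100 genes of the mouse, 8 were listed and 2 were tested. S100g, the calbindin of intestine and kidney, reached 4.21 CPM in high-fat replicate 3 and at most 0.772 CPM elsewhere, and was called higher at 2.51 ± 0.68 (SE, n = 12 per diet, edgeR adjusted p = 0.0046), but not without that library (edgeR adjusted p = 0.0222). S100a14, an epithelial member, was at 0 to 1.06 CPM on the high-fat diet and at 0 to 0.098 CPM on the control diet, with a log2 fold change of 2.03 ± 0.82 (SE, n = 12 per diet, edgeR adjusted p = 0.0491). High-fat replicate 9 held the 1.06 CPM, 25 of the 41 counts of S100a14, and without it the value was 0.58 ± 0.63 (SE, edgeR adjusted p = 0.504). S100b, known from glia, held 17 counts over the 24 libraries. S100a3, S100a7a and S100z held 2 to 9 counts in all, and S100a5 and S100a7l2 held 0 counts in every library, which allows up to 3 counts per library.

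Receptors that have been linked to secreted S100 proteins were tested as a list of 9. Of these 3 were called higher, where 13.2% of all genes were. Cd14, the co-receptor of Toll-like receptor 4, was called higher at 1.83 ± 0.30 (SE, edgeR adjusted p = 3.88e-05), with 7.97 to 29.5 CPM on the high-fat diet and 1.12 to 8.91 CPM in the controls. Cd36, a scavenger and fatty acid receptor, and Mcam, an adhesion receptor that binds S100a8 and S100a9, were also called higher, at 1.04 ± 0.30 (SE) and 1.10 ± 0.19 (SE). Without control replicate 10 Cd36 was not called and Bsg was. Tlr4 itself (0.87 ± 0.28 SE, edgeR adjusted p = 0.0159), Ager, which encodes RAGE (0.86 ± 0.39 SE, edgeR adjusted p = 0.079), Ly96, Bsg, Nptn and Alcam were not called. The median log2 fold change of the list was 0.86, against -0.03 over all genes.

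Of 11 intracellular and secretory partners, 5 were called higher and 2 lower, where 13.2% of all genes were called higher and 4.99% lower. Anxa1, an annexin that binds S100a11, rose by 1.43 ± 0.21 (SE), and Ahnak, a large scaffold that binds S100a10 with Anxa2, rose by 0.97 ± 0.17 (SE), both on the log2 scale. Myh9, the nonmuscle myosin that S100a4 binds, rose by 0.68 ± 0.11 (SE), and Il1a rose by 0.92 ± 0.27 (SE). Fgf1 had a log2 fold change of -0.74 ± 0.21 (SE) and Plg, the plasminogen gene, one of -0.68 ± 0.13 (SE), so the 2 cargo genes of S100a13, Il1a and Fgf1, moved in opposite directions, though Fgf1 was not called without high-fat replicate 9 (-0.64, edgeR adjusted p = 0.0108). Anxa6, Anxa11, Cacybp and Sugt1 were not called. The median log2 fold change of the partners was 0.11, against -0.03 over all genes.

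Other cell types were followed by marker lists, in the fit where 13.2% of all genes were called higher and 4.99% lower. Among 7 T cell transcripts Trbc2 came nearest to the threshold (0.80, edgeR adjusted p = 0.0139) without passing it, with sums of 3.01 to 10.8 CPM on the high-fat diet and 3.05 to 10.9 CPM in the controls. Of 6 Kupffer cell transcripts, which mark the resident macrophages, Cd5l was called higher and Cd163 lower, with sums of 171 to 781 CPM and 113 to 483 CPM. Of 6 sinusoidal endothelial transcripts Stab2 was called higher, though not without high-fat replicate 3, with sums of 119 to 352 CPM and 134 to 303 CPM. Of 5 mesothelial transcripts Wt1 was called higher, with sums of 2.14 to 8.81 CPM and 1.38 to 4.37 CPM. Among 5 red-cell transcripts Hbb-bt came nearest to the threshold (0.85, edgeR adjusted p = 0.2) without passing it, and without high-fat replicate 3 it was at -0.48 (edgeR adjusted p = 0.109). The median of the 5 turned from 0.48 to -0.43 without that library, with sums of 191 to 5218 CPM and 412 to 1330 CPM. Of 7 hepatocyte transcripts 5 were called lower, with a median log2 fold change of -0.71, and 4 without high-fat replicate 9 or without control replicate 10. In the latter fit 5.1% of all genes were called lower. Their part in the S100 results was not tested.

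The genes most like each member were taken from the 3 with the highest Pearson r over 24 libraries after group means were taken off, out of 13917 genes with a mean of at least 10 counts. These are descriptions over libraries that differed in total counts and, most in control replicate 10, in the level of short against long transcripts. The part of depth and RNA quality in them was not tested. For S100a11 they were Cd63, a tetraspanin of lysosomes and exosomes (r = 0.89), Unc119 (0.87) and Anxa2 (0.87), and for S100a6 they were Ahnak (0.90), Tmsb10 (0.86) and Dtx3 (0.86). S100a4 stood nearest to Tnfrsf12a (0.82), Slc25a4 (0.82) and Il3ra (0.80). S100a8 had S100a9 (0.98) and the granule gene Camp (0.97), and these fell to 0.61 and 0.18 without high-fat replicate 3. S100a9 had Ngp and Mpo at 0.98 each, and these fell to 0.44 and 0.41 without it. S100a10 had Macrod2 (0.89) and Cdc42 (0.88). S100a1 was nearest to the respiratory chain genes Ndufb10, Uqcrq and Ndufb3 (0.97 to 0.98), which had r of 0.76 to 0.83 without control replicate 10. For S100a13 they were Timm10, Fis1 and Mrpl20 (0.93 to 0.94), and for S100a16 Ncaph2, Oaz1 and Mcrip1 (0.96 to 0.97), and without control replicate 10 these 6 had r of 0.68 to 0.88.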

How the data were processed

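Libraries of poly(A) RNA from whole mouse liver were analysed from the table of raw read counts per Ensembl gene that the authors deposited. The submitters' processing notes name bcl2fastq, STAR 2.7.3a and the mm10 build, and the counting program and annotation are not given in the sources used here. Of 56205 IDs, 51745 took a symbol from GENCODE M21 names, and the rest held 0.0723% of counts. Groups came from the sample titles. Genes counted in 12 or more of the 24 libraries were fitted in R 4.3.3 with edgeR 4.0.16 (TMM scaling, quasi-likelihood F test, high-fat against control, no covariate). The difference between sets was tested as an interaction at an adjusted p of at most 0.05. DESeq2 1.42.0, limma-voom (limma 3.58.1), other scalings, filters, a replicate block and leaving out each library were tried as alternatives. The scripts were tested on simulated data. No libraries differed by less than sampling noise (chi-square per degree of freedom at least 9.48). The members, gene lists and tests were chosen with earlier results of these data known. Named genes were the members, the lists, Xist, and the 3 genes most like each member, of which some are not reported here. The limit of up to 3 counts given for a count of 0 covers counting error only. The SE and SD values also hold the spread between libraries.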

Additional observations from a re-analysis of the deposited data

Results flagged for a closer look

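The diet effect on S100a11 differed between the sets of libraries split by Xist. The test of the difference gave -1.71 on the log2 scale (Xist above 1000 counts minus Xist below, edgeR adjusted p = 0.0121), with a rise in both sets. High-fat libraries held 12.7 to 21.9 CPM in the first set and 55.4 to 79.3 CPM in the second.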

How the results depend on the processing

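The log2 fold changes of S100a4, S100a6 and S100a11 kept their direction under every alternative, and their calls were lost only where Xist was above 1000 counts, for S100a4 (1.01) and S100a6 (1.40). There the values of S100a8 (4.81) and S100a9 (4.52) also missed the threshold, S100a1 turned to 0.060 and S100a16 to 0.11, and 1 member was called higher. With at least 10 counts required in every library 1 member was called higher, S100a4, S100a6, S100a8 and S100a9 being left out by construction. limma-voom gave 2.38 for S100a8 and 1.52 for S100a9, no longer called, 0.83 for S100a10, now called, and 0.13 for S100a16. S100a10 also passed with library totals alone (1.01), with the length trend removed (0.80), without high-fat replicate 3 and control replicate 10 (0.92) and at an adjusted p of at most 0.05 with no fold limit (0.66). S100a16 turned to 0.27 in DESeq2, 0.26 with library totals alone and 0.25 without those 2 libraries, and S100a13 to 0.0062 with library totals alone. Library totals alone moved the median of all genes to 0.26 and the calls from 2372 higher and 894 lower to 3827 higher and 226 lower. At least 10 counts in every library left 1226 higher and 604 lower, Xist above 1000 counts 520 and 158, and Xist below 2572 and 1431. The S100a9 to S100a8 ratio difference passed with a pseudocount of 0.1 (-0.60). The cause of these changes was not tested.

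Leaving out each library in turn, 5 to 6 members were called higher and 0 lower. The log2 fold changes ranged from -0.48 to -0.06 for S100a1, 1.86 to 2.18 for S100a4, 1.79 to 2.25 for S100a6, 1.55 to 4.53 for S100a8, 1.0 to 3.91 for S100a9, 0.58 to 0.91 for S100a10, 2.55 to 2.94 for S100a11, -0.38 to -0.15 for S100a13 and -0.17 to 0.26 for S100a16. The lowest values of S100a8 and S100a9 came without high-fat replicate 3. The S100a10 call and the sign of S100a16 changed without control replicate 10. The ratio differences ranged from -0.28 to -0.17 for S100a9 to S100a8 and from -2.18 to -2.001 for S100a10 to Anxa2.

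The libraries share replicate numbers across diets, and deviations of same-numbered libraries from their diet mean correlated at 0.162 to 0.578 except for number 9 (-0.0961). Same-numbered libraries also share their set by Xist, so these correlations cannot decide whether the numbers pair libraries. The titles name no pairing, and the numbers were not taken as one. With a replicate block 2063 genes were higher and 844 lower, S100a8 (2.08) and S100a9 (1.42) were not called, S100a10 (0.83) was, and S100a16 was at 0.10. The interaction with the set turned without high-fat replicate 3 and control replicate 10 for S100a8 (-1.22), S100a9 (-1.29), S100a10 (-0.39), S100a13 (-0.48) and S100a16 (-0.36). With library totals alone it turned for S100a10 (-0.31), S100a13 (-0.38) and S100a16 (-0.070), and with the length trend removed for S100a10 (-0.058) and S100a13 (-0.14). None of these reversed values passed, while the difference of S100a4 passed 0.05 in all 4 alternatives. Leaving out both libraries, the marker lists without high-fat replicate 3, control replicate 10 or high-fat replicate 9, removing the length trend and robust dispersion estimates were chosen after seeing the data. S100a4, S100a8 and S100a9 had 5 to 83, 6 to 1242 and 8 to 1537 counts per high-fat library and at most 22 per control, which limits the precision of their ratios and fold changes.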
